A study of Ovis aries with 5 samples.

Results

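The chains of MHC class II were followed in dendritic cells (DC) of sheep skin lymph: DYA, DQA1, DQA2, DQB1, DRA, DRB1 and DRB3. They are read by 10 of the 15008 distinct probes on the array. The probes were chosen from the names in the scanner files: 5 have a description with the words MHC class II, and 5 more are named there for 1 of the listed chains without those words. All 10 were among the 13264 probes bright enough to test, each printed as 1 spot, and none was saturated in either dye on any array.

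The study set out to compare CD1b+CD26+ with CD1b+CD26- lymph DC. The CD26+ group holds 2 arrays and the CD26- group 2 arrays, each from sheep 30066 and sheep 10081, so each sheep gave both subsets. RNA of the sorted cells carried Cy3. On each array it competed with Cy5-labelled RNA of unsorted (total) lymph DC, which the sample labels give as coming from different sheep. The reference group is 1 self-hybridisation array with total DC in both dyes. The labels give no treatment, strain or age. Every value below is a log2 ratio of Cy3 over Cy5 after loess, unless it is called a signal, and a difference of 1 on this scale is 2-fold.

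A class II molecule is a pair of an alpha and a beta chain that holds peptides taken up from outside the cell and shows them to helper T cells. DRA, DQA1, DQA2 and DYA are alpha chains, and DRB1, DRB3 and DQB1 are beta chains. DR and DQ are found across mammals, and DC are known for high levels of both. DY is found in ruminants, where an inversion of the MHC has set it apart from DR and DQ, and it is known from DC. In sheep, class II haplotypes differ in their alleles, and some carry no DQA1. In the sheep RefSeq gene table (assembly ARS-UI_Ramb_v3.0) DYA, DQA2, DRB1 and DRA were found and all lie on chromosome 20. There 359 genes stand between DYA and DQA2, against 2 between DQA2 and DRB1 and 2 between DRB1 and DRA.

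The probes are 60-base oligonucleotides of the array design. Their sequences were compared with those of other probes only, and their places in the transcripts were not looked up. The longest exact run shared by any pair of the 10 class II probes is 9 bases. Similarity with scattered mismatches was not measured between them. The first set is shown because 1 further probe of the array, for the expressed sequence tag EE794196, reads nearly the same stretch as a DQA2 probe. The files link that tag to the DQA1 sequence M93430, although its letters are close to the DQA2 probe, so its gene is uncertain and it is not counted here. Capitals mark the 31-base run that they share, and they differ at 4 of 60 positions.
DQA2 M93431: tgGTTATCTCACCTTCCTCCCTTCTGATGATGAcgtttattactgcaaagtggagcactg
EE794196: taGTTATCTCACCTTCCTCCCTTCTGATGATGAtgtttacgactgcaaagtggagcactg

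The next pair is shown because both probes come from partial coding sequences of DRB1 alleles and the sheep differed at least 2-fold at 1 of them. The files link the DQ659127 probe to both allele sequences and the DQ659131 probe to its own alone. Elsewhere they link the DRB1 probe M73984 to the DRB3 sequence as well, and both DQA2 probes to each other's sequences, so these readings may not be specific to 1 gene or allele.
DRB1 DQ659131: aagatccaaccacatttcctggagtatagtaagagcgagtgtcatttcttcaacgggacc
DRB1 DQ659127: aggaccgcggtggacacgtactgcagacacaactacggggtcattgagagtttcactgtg

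The last set gives the first 30 bases of the probes on which most of the account turns. They have the largest difference between subsets (DYA), the largest difference between sheep (DQA1) and the smallest SE between subsets without pairing by sheep (DRA). These stretches are in lower case throughout, since no part of them is singled out.
DYA AJ616711: gaattctcccaacttagtctttgattcatt
DQA1 M93430: aatccaccaatgaccctatactaatatatc
DRA M73983: cttggagtttcttcaaactgtgattgtcat

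The arrays lay on 1 slide, with sheep 10081 in slide row 2 and sheep 30066 and the self-hybridisation in slide row 1, so the animal and the slide row cannot be told apart. Median Cy3 signals were 204.3 to 307 units, and the median local background 36.5 to 39. The SD of the log2 ratios over the tested probes was 1.18 to 1.42 on the subset arrays, against 0.291 on the self-hybridisation. The labelling protocol names a cultured cell line for the Cy5 reference where the sample labels name total DC. The reference held class II RNA on every array: its Cy5 signal above background ran from 16843 to 27597 units at the DRA probe and from 63653 to 96357 units at the DRB1 DQ659127 probe. Of 10 DC markers, 3 could be tested, and their median difference CD26+ minus CD26- was 1.06, with 2 of 3 higher in CD26+ cells of either sheep. CD1, a lipid-presenting molecule, differed by 1.78 (SE 0.38), with 1.64 in sheep 30066 and 1.92 in sheep 10081, and CD86 by 1.06 (SE 0.40); limma called neither. The mean log2 ratio of the 3 markers was 0.015 and 0.58 on the CD26+ arrays, -0.77 and -0.41 on the CD26- arrays and -0.33 on the self-hybridisation, and the part of this in the class II differences was not tested. The sort marker CD1B had log2 ratios of -0.695 and -0.105 in CD26+ cells, -0.720 and 0.277 in CD26- cells and -0.874 on the self-hybridisation, well above background on all 5 arrays.

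All class II chains had higher ratios in CD26+ than in CD26- cells in both sheep. DYA, the DY alpha chain, stood far apart from the others. Its difference was 5.27 (n = 2 sheep) against a median of 1.31 over the 9 probes for DQ and DR. The SE for DYA was 1.002 in the fit without pairing by sheep. With the sheep as a replicate block it was 0.303 (adjusted p = 0.576, limma). Other SEs come from the fit without pairing, unless the block is named. In both sheep 10 of 10 probes had the higher ratio in CD26+ cells, where 27.5% of all tested probes were. At least 2-fold higher in both sheep were 6 of 10, namely DYA, DQA1, 1 of 2 DQA2 probes, DRA, DRB3 and 1 of 3 DRB1 probes (M73984), against 2.42% of all tested probes. Which probes passed 2-fold depended on the scale: with Cy3 signals alone DRA (1.30 in sheep 30066 and 0.61 in sheep 10081) and DRB1 M73984 (1.06 and 0.43) did not, and both DQA2 probes did. The median difference over all tested probes was -0.007.

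None of these differences passed the test across the array. limma called 0 of 10 class II probes and 0 of 13264 in all at an adjusted p under 0.05, which is 0% of the probes, with adjusted p-values of 0.774 to 0.99997 for the class II probes. At an unadjusted p under 0.05 it found 748 probes, 5.64% of those tested. Those higher in CD26+ cells made up 2.39% of the tested probes and included 5 of the 10 class II probes. With the sheep as a replicate block 9 of 10 class II probes had an unadjusted p under 0.05 and a higher value in CD26+ cells, against 4% of all tested probes, and 8.44% in either direction. Their adjusted p-values were then 0.576 to 0.602 and no probe was called. In bulk RNA, more cells that carry a transcript and more transcript per cell cannot be told apart.

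**Figure D1:**
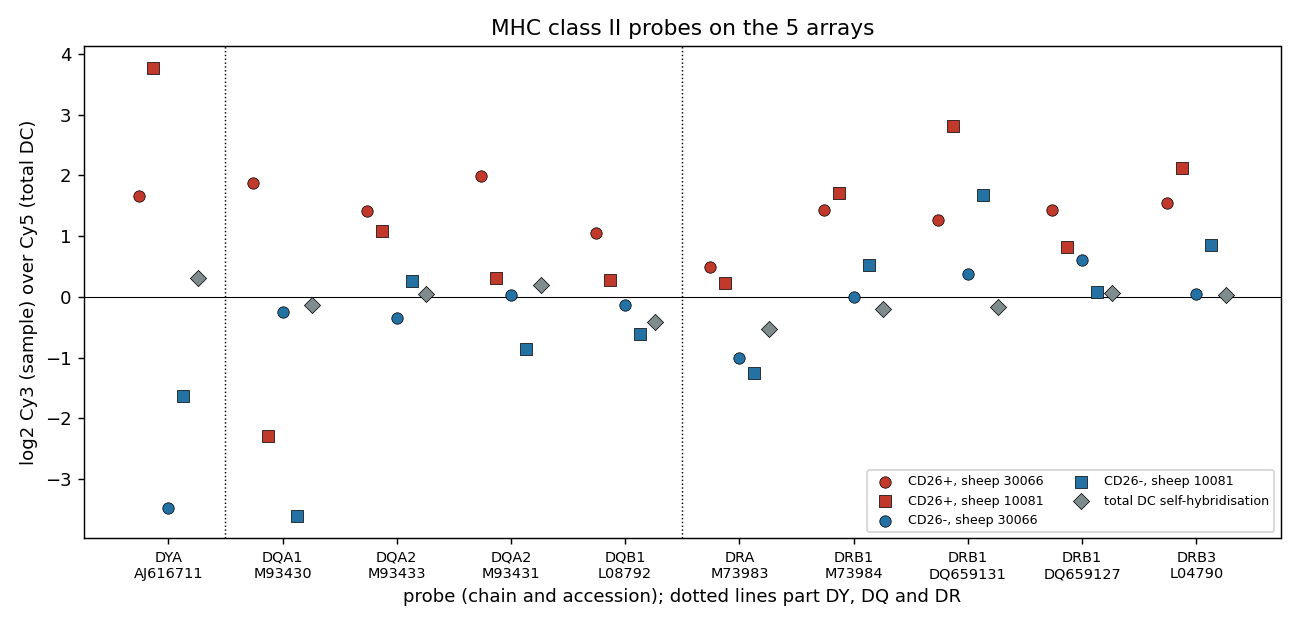
Log2 ratio of Cy3 (sample) over Cy5 (total DC) for the 10 class II probes, 1 point per array: CD26+ in red, CD26- in blue, the self-hybridisation in grey, with circles for sheep 30066 and squares for sheep 10081. Within each sheep the red point lies above the blue one at every probe, and DYA shows the widest gap.

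DYA had a log2 ratio of 1.67 in sheep 30066 and 3.76 in sheep 10081 in CD26+ cells, against -3.48 in sheep 30066 and -1.63 in sheep 10081 in CD26- cells and 0.31 on the self-hybridisation. The CD26+ arrays thus lay above total DC and the CD26- arrays below it, with no overlap. The Cy3 signal above background was 1571 and 9474 units on the CD26+ arrays, against 20.8 and 149.5 units on the CD26- arrays, in the same order of sheep, and 732 units on the self-hybridisation. On 4 arrays the spot was well above background; on the CD26- array of sheep 30066 it was not.

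The difference in DYA was 5.14 in sheep 30066 and 5.39 in sheep 10081, with an adjusted p of 0.774 (limma). For sheep 30066 the CD26- spot was dim. With it at its own fitted value, CD26+ cells were 30.5-fold higher on the Cy3 scale after loess and quantile scaling of spot brightness. The fitted value lay above the lowest signal called well above background, so no floor was applied. The 30.5-fold is thus an uncertain estimate and not a limit. It belongs to this scale alone, and with Cy3 signals alone the log2 difference in sheep 30066 was 4.70, a smaller one. For sheep 10081, where both spots were measured, the Cy3 ratio after loess and quantile scaling was 64.2-fold. The scale of Cy3 alone compares samples in the same dye, but it makes no use of the reference on the same spot. No other tested probe was as far apart as the smaller of the DYA differences in both sheep, and 1 had a larger fitted difference. That smaller difference, 5.14 in sheep 30066, rests on the dim spot, and the ranking was not repeated under other settings.

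When spots beside bright specks were kept in the background model, the DYA difference was 3.67. Set against the median of the DQ and DR probes within the same sheep, the DYA difference was larger by 4.23 in sheep 10081, where both spots were measured. In sheep 30066 it was larger by 3.65, a value that rests on the dim spot. That gap was not given a test, since DYA is a single probe chosen with its value known.

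**Figure D2:**
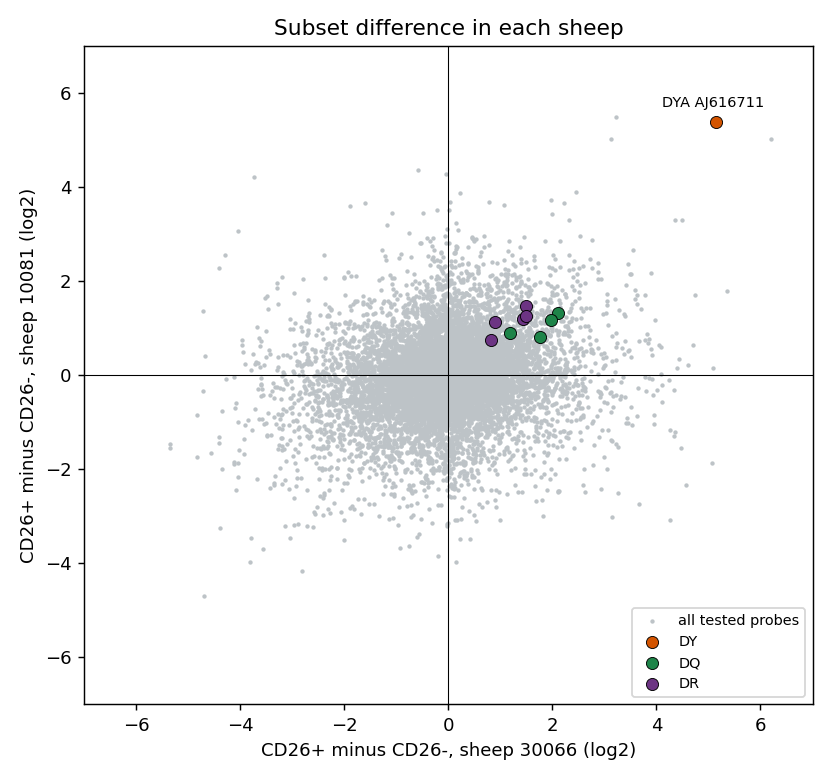
Difference CD26+ minus CD26- on the log2 scale in sheep 30066 (horizontal) and in sheep 10081 (vertical), for all tested probes with a value in both sheep (grey) and the class II probes (DY orange, DQ green, DR purple). All class II points lie above 0 on both axes, DYA at 5.14 and 5.39, and the DQ and DR points between 0.75 and 2.12.

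Among the alpha chains of DQ, DQA1 showed the largest spread between sheep. Its log2 ratio was 1.87 in sheep 30066 and -2.28 in sheep 10081 in CD26+ cells, against -0.24 in sheep 30066 and -3.61 in sheep 10081 in CD26- cells and -0.13 on the self-hybridisation. The groups overlapped, because both subsets of sheep 10081 lay below both subsets of sheep 30066. Within a sheep, CD26+ cells were higher by 2.12 in sheep 30066 and by 1.32 in sheep 10081. Without the sheep as a block the difference was 1.72 with an SE of 1.84 (limma, adjusted p = 0.99997). With the sheep as a replicate block its SE was 0.368 (adjusted p = 0.576). Without the CD26+ array of sheep 30066 the unpaired difference turned to -0.36.

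The DQA2 probes, both named for the second DQ alpha gene, differ in sequence. At M93433 the log2 ratio was 1.41 and 1.08 in CD26+ cells of sheep 30066 and 10081, against -0.35 and 0.26 in CD26- cells of the same sheep and 0.047 on the self-hybridisation, with no overlap. At M93431 it was 1.99 and 0.31 in CD26+ cells, against 0.024 and -0.86 in CD26- cells and 0.20 on the self-hybridisation, again with no overlap. The differences were 1.29 (SE 0.41, adjusted p = 0.853, limma) at M93433 and 1.57 (SE 0.73, adjusted p = 0.908, limma) at M93431. The tag probe EE794196, whose sequence is printed above beside M93431, gave 1.89 and 0.13 in CD26+ cells, against -0.005 and -1.25 in CD26- cells, and 0.16 on the self-hybridisation. It followed M93431 on every array to within 0.39, but since the probes share most of their bases it is no separate reading of the gene.

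DQB1 is the beta chain that pairs with the DQ alpha chains. It had log2 ratios of 1.06 and 0.28 in CD26+ cells, against -0.13 and -0.61 in CD26- cells and -0.41 on the self-hybridisation. The groups did not overlap, and the difference was 1.04 (SE 0.46, adjusted p = 0.901, limma), 1.19 in sheep 30066 and 0.89 in sheep 10081.

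DRA, the alpha chain shared by all DR molecules, gave the difference with the smallest SE of the class II probes without the sheep as a block. With the sheep as a replicate block DRA and DRB1 DQ659127 each had an SE of 0.295. The log2 ratio of DRA was 0.49 in sheep 30066 and 0.22 in sheep 10081 in CD26+ cells, against -1.01 and -1.25 in CD26- cells of the same sheep and -0.53 on the self-hybridisation. CD26+ arrays lay above total DC and CD26- arrays below it, and the sheep differed little. The difference was 1.49 (SE 0.35, adjusted p = 0.774, limma), 1.502 in sheep 30066 and 1.47 in sheep 10081.

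The DR beta chain DRB1 was read by 3 probes, and all had higher ratios in CD26+ cells within each sheep. M73984 had log2 ratios of 1.43 and 1.71 in CD26+ cells, against -0.007 and 0.52 in CD26- cells and -0.19 on the self-hybridisation. DQ659127 had 1.42 and 0.82 in CD26+ cells, against 0.60 and 0.072 in CD26- cells and 0.069 on the self-hybridisation. At both probes the CD26+ arrays lay above the CD26- arrays. DQ659131 had 1.27 and 2.81 in CD26+ cells, against 0.37 and 1.67 in CD26- cells and -0.17 on the self-hybridisation, so the CD26+ array of sheep 30066 lay below the CD26- array of sheep 10081. The differences between subsets were 1.31 (SE 0.39) at M73984, 1.02 (SE 0.76) at DQ659131 and 0.79 (SE 0.43) at DQ659127. At DQ659131 it was 0.25 without the CD26+ array of sheep 10081 and 1.79 without that of sheep 30066. At DQ659127 it was 0.49 when the CD26+ array of sheep 30066 was left out.

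DRB3, a further DR beta sequence, had log2 ratios of 1.54 and 2.11 in CD26+ cells, against 0.043 and 0.86 in CD26- cells and 0.033 on the self-hybridisation. The groups did not overlap, and the difference was 1.38 (SE 0.47, adjusted p = 0.860, limma). Over the class II probes, both CD26+ arrays lay above both CD26- arrays at 8 of 10, the exceptions being DQA1 and DRB1 DQ659131, against 14.9% of all tested probes.

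The signals behind these ratios were high, DYA in CD26- cells apart. For the 9 DQ and DR probes the Cy3 signal above background ran from 789 to 57924 units on the subset arrays, and the lowest was that of DQA1 in CD26- cells of sheep 10081. Before any normalisation the Cy3 signal was higher on the CD26+ than on the CD26- array of the same sheep at all 10 probes. The ratio of these signals was 1.31 to 2.89 in sheep 30066 and 1.43 to 2.68 in sheep 10081 for the DQ and DR probes. The Cy5 signal of the common reference also moved between arrays, and a lower Cy5 signal raises the ratio. In sheep 30066 it was lower on the CD26+ than on the CD26- array at every DQ and DR probe. In sheep 10081 it was lower on the CD26+ array at DRA (16843 against 27597 units), DRB1 M73984 (27202 against 44480 units) and DRB1 DQ659127. At the other DQ and DR probes of sheep 10081 it was higher on the CD26+ array. The part of this in the differences was not tested. At DQA1 it was 9742 units on the CD26+ array of sheep 30066 and 25869 units on that of sheep 10081, a 2.66-fold range over the 5 arrays, where the median tested probe had a 1.5004-fold range. With Cy3 signals alone the median difference of the DQ and DR probes was 0.956, and that of DYA was 5.22.

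**Figure D3:**
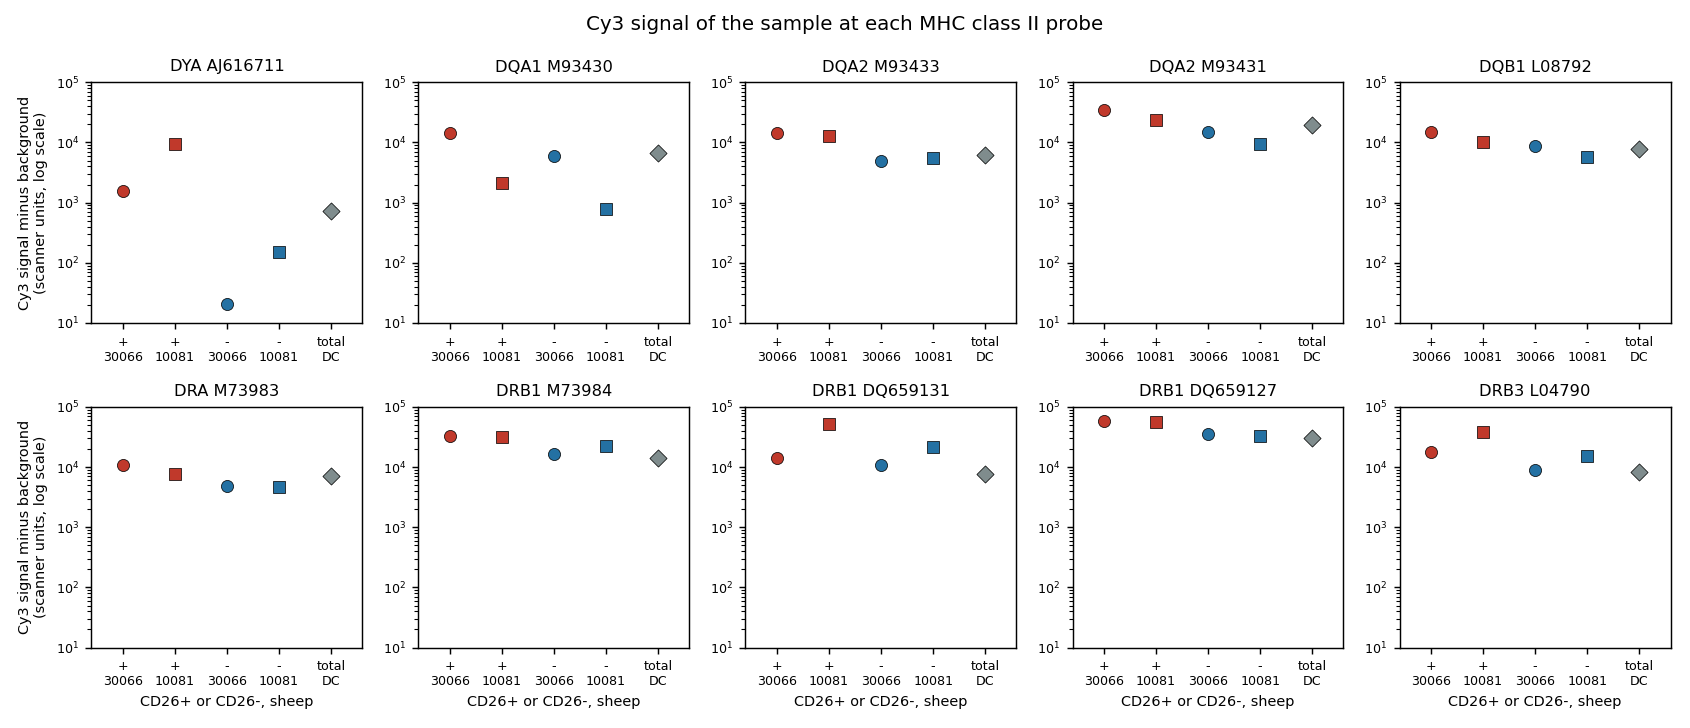
Cy3 signal minus local background in scanner units on a log axis for each class II probe, with the CD26+ arrays in red, the CD26- arrays in blue and the self-hybridisation in grey. DYA spans 20.8 to 9474 units across the subset arrays, and the other probes stay at 788.8 units or higher.

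Set against total DC, most DQ and DR probes of CD26+ cells lay higher and those of CD26- cells lay on both sides of it, while DYA lay above it in CD26+ and below it in CD26- cells. CD26+ arrays of both sheep stood above the self-hybridisation at 9 of 10 probes, the exception being DQA1, against 34.3% of all tested probes. At 5 of 10 both stood at least 2-fold above it (DYA, DQA2 M93433, DRB1 M73984, DRB1 DQ659131 and DRB3), against 9.9% of all tested probes. The median difference CD26+ minus total DC was 1.08 over the DQ and DR probes and -0.024 over all tested probes. The largest of them were 2.21 (SE 0.93) for DRB1 DQ659131, 1.80 (SE 0.58) for DRB3 and 1.76 (SE 0.48) for DRB1 M73984. DYA was at 2.40 (SE 1.23), 1.36 in sheep 30066 and 3.45 in sheep 10081.

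For CD26- cells the median difference from total DC was 0.043 over the DQ and DR probes, from -1.80 for DQA1 to 1.19 for DRB1 DQ659131, and -0.031 over all tested probes. The median turned to -0.29 with median centring, to -0.13 with the scanner's own ratio and to -0.22 with Cy3 signals alone, so no direction is given for it. Both CD26- arrays lay above the self-hybridisation at 4 of 10 class II probes, all of them of DRB1 and DRB3, against 33.9% of all tested probes. The margin was as small as 0.004 for DRB1 DQ659127 in sheep 10081 and 0.011 for DRB3 in sheep 30066. Both CD26- arrays lay below the self-hybridisation at 4 of 10, namely DYA, DQA1, DQA2 M93431 and DRA, against 38.1%. DYA alone was at least 2-fold below it on both, 1 of 10, against 7.51%. At 3 of 10 probes, DYA, DQA2 M93431 and DRA, the CD26+ arrays lay above the self-hybridisation and the CD26- arrays below it, against 2.76%. For DQA2 M93431 the margins were as small as 0.106 in CD26+ cells of sheep 10081 and -0.175 in CD26- cells of sheep 30066. In CD26- cells DYA was at -2.87 (SE 1.23) against total DC, -3.79 in sheep 30066 and -1.94 in sheep 10081. The comparisons of CD26+ and of CD26- cells with total DC share the single self-hybridisation array.

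Against total DC limma called 0 of 10 class II probes for CD26+ cells, with adjusted p-values of 0.367 to 0.996, and 0% of 13204 probes in all. For CD26- cells it also called 0 of 10, with adjusted p-values of 0.536 to 0.990, and 0% of 13204 probes. An unadjusted p under 0.05 was found for 1493 probes (11.3%) in CD26+ cells, with 2 class II probes among them, and for 1400 (10.6%) in CD26- cells, with 0 class II probes among them. Ordered by group mean, DYA was highest in CD26+ cells at 2.71, then in total DC at 0.31, and lowest in CD26- cells at -2.55. DRA had the same order, at 0.36 in CD26+ cells, -0.53 in total DC and -1.13 in CD26- cells, and so did both DQA2 probes. Neighbours in these orders did not differ beyond the test.

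The sheep differed at some chains as much as the subsets did. At DQA1, the difference sheep 10081 minus sheep 30066 was -4.16 in CD26+ cells and -3.36 in CD26- cells. That is more than 4-fold in both subsets, as at 1.33% of all tested probes. DYA was higher in sheep 10081 by 2.09 in CD26+ cells and by 1.85 in CD26- cells, the last resting on the spot that was not well above background. DRB1 DQ659131 was higher in sheep 10081 by 1.54 in CD26+ cells and by 1.30 in CD26- cells. These 3 of 10 class II probes were at least 2-fold apart between the sheep in the same direction in both subsets, against 9.16% of all tested probes.

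The other DRB1 probes differed less between the sheep than DQ659131, M73984 in the same direction and DQ659127 in the other. M73984 was higher in sheep 10081 by 0.28 in CD26+ cells and by 0.53 in CD26- cells, while DQ659127 stood at -0.60 in CD26+ cells and -0.53 in CD26- cells for sheep 10081 minus sheep 30066. The probes of DQA2 also parted. On the same scale M93431 had -1.69 in CD26+ cells and -0.88 in CD26- cells, and the similar tag probe EE794196 had -1.76 in CD26+ cells and -1.24 in CD26- cells. At M93431 both dyes moved. On the CD26+ arrays of sheep 30066 and 10081 the Cy3 signal was 35337 and 23477 units. The Cy5 signal of the reference there was 24076 and 53555 units. M93433 had -0.33 in CD26+ cells, and 0.61 in CD26- cells. DRA, with -0.27 in CD26+ cells and -0.24 in CD26- cells, was among the probes with the smallest differences between the sheep. No test was made of the sheep, since 1 animal stands on each side and the slide row moves with it.

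**Figure D4:**
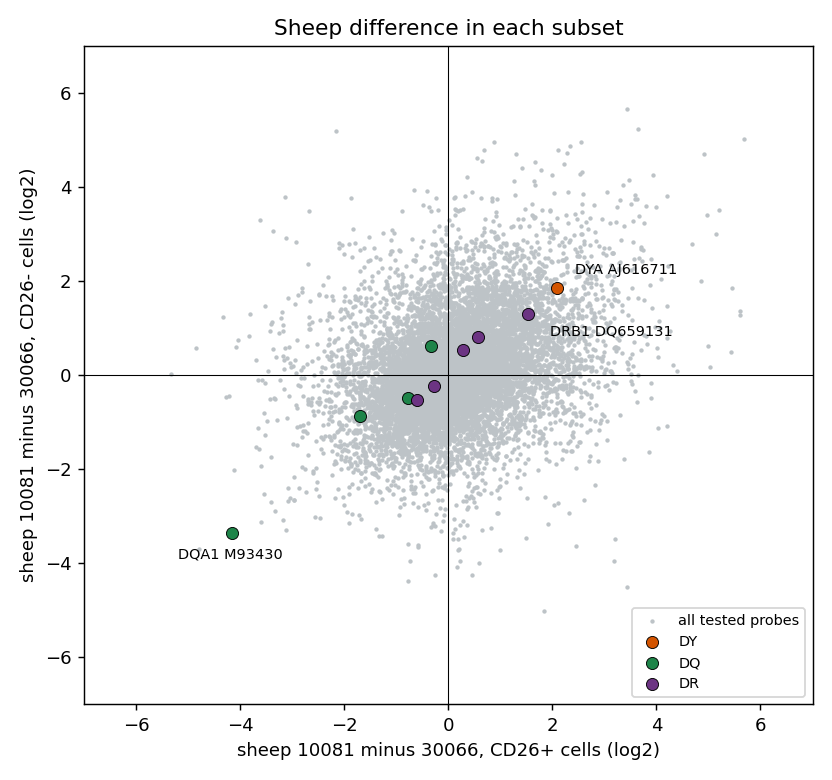
Difference sheep 10081 minus sheep 30066 on the log2 scale in CD26+ cells (horizontal) and in CD26- cells (vertical), for all tested probes with a value on the 4 subset arrays (grey) and the class II probes (DY orange, DQ green, DR purple). DQA1 lies at -4.16 and -3.36, DYA at 2.09 and 1.85, and DRB1 DQ659131 at 1.54 and 1.30, while DRA lies near 0.

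The class II pathway list held 30 names of further genes, with DMA entered under alternative names. It ran from transcription factors and the invariant chain to proteases that cut antigen and costimulatory molecules that accompany presentation. Of these genes 9 could be tested. limma called 0 of them. In both sheep 4 of 9 had a higher ratio in CD26+ cells, against 27.5% of all tested probes, and 1 had a lower one. CTSD was among the 4 with a difference of only 0.007 in sheep 30066. The median difference of the 9 genes was 0.18. No listed gene was 2-fold higher in both sheep, and none 2-fold lower in both. The largest differences were those of CD86, a costimulatory ligand, at 1.06 (SE 0.40), and CREB1, a transcription factor that acts at class II promoters, at 1 (SE 1.501), with 2.44 in sheep 30066 and -0.44 in sheep 10081. CD80, the partner ligand of CD86, stood at 0.54 (SE 0.70) and CD40, the receptor for T cell help, at 0.46 (SE 0.38). The proteases CTSB, CTSD, LGMN and CTSS lay between -0.21 and 0.18, with no value for CTSS in CD26- cells of sheep 10081.

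Among 665 other named genes, those nearest to DYA over the 5 arrays by Euclidean distance of the log2 ratios were CPP32 at 3.31, MAPKAP1 at 3.54 and SFTPA1 at 3.96. CPP32, an older name of the protease caspase 3, had log2 ratios of 1.84 and 3.84 in CD26+ cells, against -0.61 and -0.05 in CD26- cells and -0.19 on the self-hybridisation. Nearest to DRA were FAS at 0.55, XDH at 0.92 and CXCR4 at 1.07. FAS, a death receptor, had 0.58 and 0.49 in CD26+ cells, against -0.79 and -0.95 in CD26- cells and -0.25 on the self-hybridisation. No named gene came as close to DYA as the third nearest gene came to DRA.

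Markers of other cells that can carry class II or share the lymph were also read. For B cells 0 of 7 markers, and for plasmacytoid DC 0 of 3, were found by name on the array, so these cells were not analysed here. Of 4 tested monocyte and macrophage markers, 3 had lower ratios in CD26+ than in CD26- cells of either sheep, and 0 had higher ones in both. Their mean log2 ratio was -1.27 to -0.68 on the CD26+ arrays, -0.31 to -0.25 on the CD26- arrays and -0.18 on the self-hybridisation. Of 7 tested T cell markers, 2 had higher ratios in CD26+ cells of either sheep, against 27.5% of all tested probes, and 3 had lower ones. CD4 was among the lower with differences of only -0.063 and -0.064. CD28 had no value in CD26+ cells of sheep 30066, so it was in neither count and not in the mean of that array. The mean log2 ratio of these markers was 0.26 to 1.19 on the CD26+ arrays, 0.30 to 0.89 on the CD26- arrays and 0.11 on the self-hybridisation. CLDN1, the 1 tested Langerhans cell marker, stood at -1.25 and GNLY, the 1 tested NK cell marker, at 3.24, with no value for GNLY in CD26- cells of sheep 10081. The part of these cells in the class II differences was not tested.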

How the data were processed

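RNA of sorted sheep lymph DC was measured on 5 Agilent 2-colour arrays. The deposited intensity of each spot and of its surroundings came from Feature Extraction (9.5.3.1), according to the headers. The deposited log10 ratio is Cy5 over Cy3 of dye-normalised signals, per the file headers. A deposited log2 value table equalled its negative in log2 units, so it is Cy3 over Cy5, with column medians of -0.068 to 0.015. Any other centring is not given in the sources used here.

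Mean signals were corrected with the normexp model (offset 50), fitted without 0 to 9 spots per array whose local background exceeded 5 times the array median, and normalised within arrays by loess (limma 3.58.1, R 4.3.3). The 536 control spots and 81 to 203 outlier spots per array were left out. A probe was tested where at least 2 arrays had it well above background in Cy3, and 1744 were dim. Gene symbols were found for 1423 probes. For FABP5, CD1B and CREB1 the name was taken from the file's description or older name.

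limma fitted 3 group means (2 residual and 2.36 prior degrees of freedom) with Benjamini-Hochberg adjustment over all tested probes. Subsets of a sheep are paired because they come from the same animal; their deviations from the mean of their group had r = 0.33. The number of arrays limits the precision. The members and lists were chosen with earlier results of these data known. Named were all class II probes, pathway genes 2-fold apart in both sheep or among the 4 largest, and the 3 nearest genes to DYA and DRA. Alternatives were the background model, offset, normalisation, scaling, filter, scanner ratio, arrays fitted, sheep block and leaving out 1 array; Cy3 signals alone were added after seeing the data.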

Additional observations from a re-analysis of the deposited data

Results flagged for a closer look

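At 3 class II probes every CD26+ array lay above, and every CD26- array below, the total DC self-hybridisation, as at 2.76% of all tested probes. The difference CD26+ minus CD26- was 5.27 for DYA, 1.57 for DQA2 M93431 and 1.49 for DRA. The direct comparison of the subsets did not pass (limma, adjusted p = 0.774 for DYA, 0.908 for DQA2 M93431 and 0.774 for DRA), and 1 self-hybridisation array serves all 4 subset arrays.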

How the results depend on the processing

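Calls stayed at 0 under every alternative run, leaving out 1 array included; the fits on the 4 subset arrays and with the sheep block were run for CD26+ against CD26- only. In all settings that kept the 10 probes and both arrays of each sheep, 10 of 10 stayed higher in CD26+ cells in both sheep. The filter that asks for all 5 arrays removed DYA and left 9 of 9. With the sheep as a replicate block (subsets paired by animal) the DYA difference was 5.27, that of the DQ and DR probes 1.31, and no call changed. The DYA difference moved to 3.67 with normexp fitted on all spots, 5.84 with an offset of 16, 4.76 with median centring and 4.06 with scaling between arrays, and ranged from 4.22 to 6.32 leaving out 1 array. The median of the DQ and DR probes moved to 1.04 with scaling between arrays and to 0.956 with Cy3 alone, and ranged from 1.05 to 1.43. Against total DC it was 0.756 to 1.47 in CD26+ cells leaving out 1 array, and DYA 1.355 to 3.449, or 1.144 with scaling between arrays. In CD26- cells the DQ and DR median was 0.008 (all spots), 0.02 (offset 16) and 0.233 (scaling), turned to -0.286 (median centring), -0.132 (scanner ratio) and -0.22 (Cy3 alone), and was 0.004 to 0.043 leaving out 1 array. DYA in CD26- cells moved to -1.25 with normexp on all spots and was -3.79 to -1.94 leaving out 1 array. DRA moved to 0.956 and DRB1 M73984 to 0.748 with Cy3 alone. Without the CD26+ array of sheep 30066, which leaves 1 CD26+ array against both sheep, DQA2 M93431 was 0.721 and DQB1 0.651. DQA1 ranged from -0.359 to 3.799 leaving out 1 array; its sign turned when the CD26+ array of sheep 30066 was dropped, which leaves 1 CD26+ array against both sheep. The cause of these shifts was not tested. Signal over background limits DYA alone among the class II probes.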
